A study of Homo sapiens with 28 samples.

Results

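Olaparib blocks the catalytic activity of PARP enzymes and traps them on DNA at sites of damage. Cells that lack homologous recombination, such as those with a defective BRCA2 gene, are sensitive to it. Cells that survive the drug can do so within days, as slow-cycling persisters, or over a long exposure in which a population adapts to rising doses. ATAC-seq reads where chromatin is open, because the Tn5 transposase inserts sequencing adapters mainly into DNA that is free of nucleosomes, such as active promoters and enhancers.

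The question taken up here is whether a high dose of olaparib, set against a low dose, moved chromatin accessibility differently in adapted cells and in cells exposed for a short time. Kuramochi is an established ovarian cancer cell line, given in the labels as epithelial and BRCA2-mutant, and all groups share that background. T320 and T10 were resistant populations adapted to 320 and 10 uM of olaparib, kept at that dose and sorted for low CD24 and high CD44. P320 and P10 were drug-naive cells given 320 and 10 uM for 9 days, with no sort named for them. Populations adapted to 5, 20, 40, 80 and 160 uM (T5, T20, T40, T80 and T160) and untreated cells (C), sorted on CD24 and CD44, were used as further measurements. Each group had 2 libraries. The dose effect in adapted cells was T320 over T10, the dose effect in acute cells was P320 over P10, and the interaction was the first minus the second on the log2 scale, so that a positive value means a more positive dose effect in adapted cells. It used 8 of the 20 libraries with a column in the count table and all 105048 consensus peaks. Adaptation, its length and the sort differ together between the T and P groups and cannot be told apart in the interaction.

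Total counts in peaks lay between 9627970 and 29699950 per library. The share of counts at gene starts was 31.3% and 34.0% in T320, against 34.3% and 35.4% in T10, and 41.1% and 40.3% in P320, against 35.0% and 34.8% in P10. The 10 ovarian epithelial markers, among them SOX17, all had a gene peak, with summed levels of 134 to 140 CPM (counts scaled to a common library size) in T320, 141 to 152 in T10, 308 to 313 in P320 and 270 to 271 in P10. Of the blood markers 3 of 8 had a gene peak, of the endothelial markers 3 of 6 and of the hepatocyte markers 2 of 5. Of the fibroblast markers 2 of 6 had one, and of the neural markers 6 of 6. CD14, CSF1R, TIE1, VWF and APOA1 were among the markers with a gene peak, and PTPRC, PECAM1, ALB and DCN among those without.

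The dose effect differed between the settings at 24764 peaks, called by edgeR's quasi-likelihood test where the log2 value was at least 1 in size and the p, adjusted by Benjamini-Hochberg, was under 0.05. Of these, 14264 were higher in adapted cells (13.6% of all peaks tested) and 10500 were lower (10.00%). T320 was above T10 at 7162 peaks (6.82%) and below it at 6116 (5.82%). P320 was above P10 at 4303 peaks (4.10%) and below it at 10168 (9.68%). The smallest called interaction was 1.00 in size, and another 2796 peaks had an adjusted p under 0.05 by the same test with a smaller value.

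Most peaks that responded to dose in both settings did so in opposite directions. Both dose effects were called at 2924 peaks, 22.0% of the peaks called in adapted cells and 20.2% of those called in acute cells, and at 2442 of them the signs were opposite. Across all peaks the 2 dose effects had a Pearson correlation of -0.23, and at gene starts alone -0.11, values that describe peaks sharing the same 8 libraries and carry no test.

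**Figure D1:**
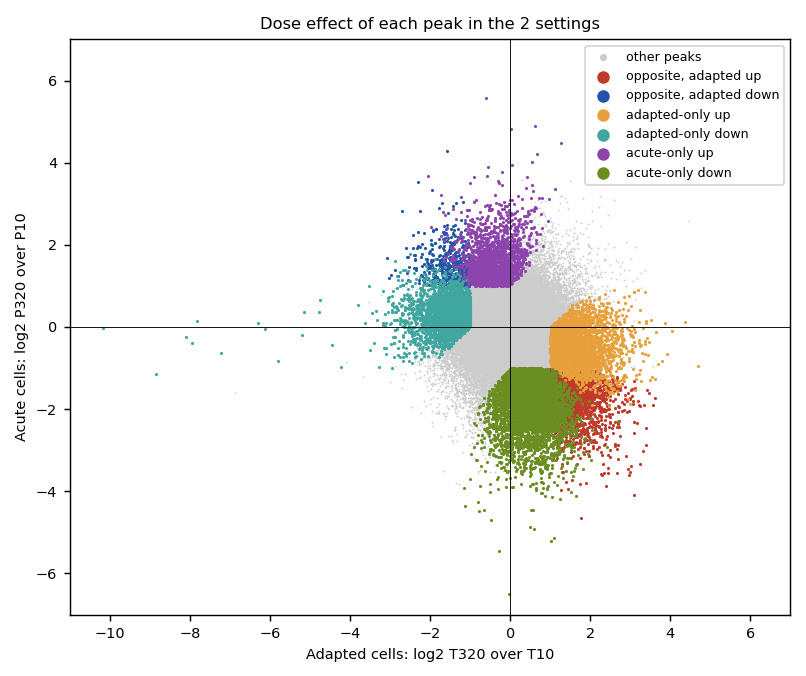
Each point is 1 of 105048 peaks, with the log2 ratio of T320 over T10 on the horizontal axis and of P320 over P10 on the vertical axis; colours mark the peaks whose interaction was called and whose dose effects were opposite or confined to 1 setting. The opposite peaks fill the lower right (1905) and the upper left (537), and a few adapted-only peaks lie far to the left.

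Called peaks were sorted into 6 classes. In the opposite classes both dose effects were called with opposite sign: 1905 peaks were higher in T320 and lower in P320, and 537 were lower in T320 and higher in P320. In the adapted-only classes T320 against T10 was called and P320 against P10 had an adjusted p of 0.05 or more in edgeR's quasi-likelihood test: 3283 peaks were higher in T320 and 3336 lower. In the acute-only classes the reverse held: 1973 peaks were higher in P320 and 5133 lower. A missed threshold does not show that the other setting did not respond, and the other setting's log2 value was under 0.5 in size at 4097 of the 6619 adapted-only peaks and at 3598 of the 7106 acute-only peaks. Replicates differed more in the adapted groups. The median SD of the log2 level was 0.40 in T320 and 0.34 in T10, against 0.17 in P320 and 0.18 in P10. The fit shared its estimate of the spread over all groups, and the part of this difference in the class sizes was not tested. A further 8587 called peaks fell into none of these classes, 7585 of them with neither dose effect called. Another 10 had both dose effects called with the same sign.

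How many peaks were higher depended on the scaling. When libraries were scaled on gene-start peaks alone, the median interaction over all peaks shifted by 0.41 on the log2 scale to 0.30, and the calls became 19286 higher and 4185 lower. Under that scaling P320 was above P10 at 1607 peaks and below it at 15149. The opposite classes then held 2580 peaks higher in T320 and 193 lower, the adapted-only classes 3146 higher and 1762 lower, and the acute-only classes 686 higher and 7895 lower. The near balance of adapted-only peaks was thus not present under that scaling. The excesses of opposite peaks higher in T320 and of acute-only peaks lower in P320 were, but this is no test of them. The scaling moved the median acute dose effect over all peaks from 0.08 to -0.25, a direction that adds to both. Under a trended offset, which scales by count level, the opposite classes held 1946 peaks higher in T320 and 700 lower. The acute-only classes then held 2864 peaks higher in P320 and 4815 lower.

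The class sizes also rested on single libraries. Without T320 replicate 2 or T10 replicate 2, the T320 against T10 calls dropped to 6198 or 7167 and the adapted-only peaks to 3320 or 3638. Without P320 replicate 1 or 2 or P10 replicate 1 or 2, the P320 against P10 calls dropped to 5725, 6884, 7729 or 7384, and the acute-only peaks to 2987, 3586, 3992 or 3792. The opposite peaks numbered 1078 without T320 replicate 2, 1064 without T10 replicate 2, 1083 and 1258 without P320 replicates 1 and 2, and 1436 and 1384 without P10 replicates 1 and 2.

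Few of these peaks lay at gene starts. Gene-start peaks made up 3.04% of the opposite peaks that were higher in T320, 2.61% of those lower, 4.05% and 8.45% of the adapted-only peaks higher and lower, and 2.89% and 3.74% of the acute-only peaks higher and lower, against 17.8% of the peaks with no interaction call. The interaction was called at 12.1% of gene-start peaks, against 24.8% of peaks inside protein-coding genes and 26.6% of peaks outside them. The median gene-start peak had an interaction of -0.39, made of a median of -0.06 in adapted cells and 0.34 in acute cells. Scaling on those same peaks brought it to 0.01.

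The sequence at the gene starts of these classes is shown next, because motif shares differed between the classes. Windows of 300 bases, from 250 before to 50 after each annotated start, were taken from RefSeq (GRCh38.p14) and searched on both strands for 12 motifs. A window counted for a peak that overlapped any part of it, so a match can lie outside the peak. The AP-1 motif TGAGTCA, bound by FOS and JUN dimers, was present in 27 of the 51 windows under opposite peaks higher in T320 (52.9%) and in 41 of 119 under adapted-only peaks higher in T320 (34.5%). It was present in 28 of 153 windows under acute-only peaks lower in P320 (18.3%), against 828 of all 19757 windows with a peak (4.19%) and 4.95% of all 35097 windows. In the other 3 classes it was in 0 of 12 windows under opposite peaks lower in T320, 7 of 304 under adapted-only peaks lower in T320 (2.30%) and 2 of 50 under acute-only peaks higher in P320 (4.0%).

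The kB motif GGANTTTCC, a form of the NF-kB site, was in 15 of the 153 windows under acute-only peaks lower in P320 (9.80%), against 1.76% of all windows with a peak. The GC box GGGCGG was in 2 of the 51 windows under opposite peaks higher in T320 (3.92%), against 66.0% of all windows with a peak. It was below that share in every other class too. The shares were 25.0% under opposite peaks lower in T320 and 31.9% and 57.9% under adapted-only peaks higher and lower in T320. Under acute-only peaks higher and lower in P320 they were 10.0% and 16.3%. Other motifs were also more frequent than in all windows with a peak. Under acute-only peaks lower in P320, the C/EBP motif TTGCNNAA was in 18.3% of windows, against 7.35% of all windows with a peak, and the interferon response motif GAAANNGAA in 17.6%, against 6.37%. Under acute-only peaks higher in P320, TATAAA was in 24.0% of windows, against 5.77%. Under opposite peaks higher in T320, the TEAD motif GGAATG was in 25.5%, against 11.9%, and the amino acid response motif TGATGNAA in 11.8%, against 1.89%. Each of these motifs was also raised in other classes. The C/EBP and interferon response motifs were each in 13.7% of windows under opposite peaks higher in T320. They were in 6.58% and 5.59% under adapted-only peaks lower in T320. The TEAD motif was in 20.9% under acute-only peaks lower in P320. Adapted-only peaks higher in T320 had TATAAA in 13.4% and the amino acid response motif in 4.20%. Base composition moved with the classes: the median GC content was 49.7% in windows under opposite peaks higher in T320, 52.3% for adapted-only higher, 48.0% for acute-only lower and 44.3% for acute-only higher, against 65.0% for all windows with a peak. Its part in the motif shares was not tested. Windows under peaks exist only for the small gene-start share of each class, and a match of letters is a description and no evidence of binding.

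**Figure D2:**
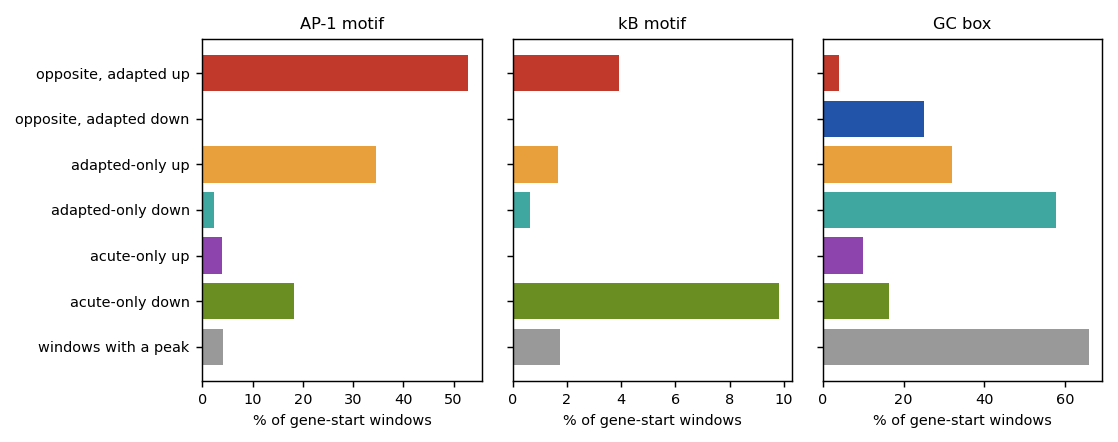
Bars give the percentage of 300-base gene-start windows holding each of 3 motifs, for windows under the peaks of each class and for all windows with a peak; windows per class ran from 12 to 304, and the horizontal scale differs between panels. The AP-1 bar is longest for opposite peaks higher in T320 (52.9%) and the kB bar for acute-only peaks lower in P320 (9.80%).

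The following AP-1 sites are those of the 4 protein-coding genes with the largest interaction among opposite peaks higher in T320 and the 4 among adapted-only peaks higher in T320 that hold the motif at least 10 bases before the start. They were chosen after their values were seen. For SORBS2 and DCLK1 the peak over the site is not the gene's peak with the highest mean count, which had no interaction call. Each is written 5′ to 3′ on the gene's strand with the motif, in either orientation, in capitals.
SORBS2, chr4:185933142-185933168, minus strand: gctgggactgTGACTCAgacctccctt
DCLK1, chr13:35855875-35855901, minus strand: gattttcagaTGAGTCActggatctct
AMPD3, chr11:10455069-10455095, plus strand: catgcggaggTGACTCAggcccaagtc
KCNMA1, chr10:77350879-77350905, minus strand: ctctagccttTGAGTCAaccactgagt
DHRS9, chr2:169069505-169069531, plus strand: acaatgggagTGACTCAcagagcaagg
UCN2, chr3:48563867-48563893, minus strand: ccgggagggaTGAGTCAtaggtggggg
DHRS3, chr1:12596682-12596708, minus strand: agatgccaagTGACTCAtccaaaagtc
TM4SF19, chr3:196338586-196338612, minus strand: gtgcatccagTGACTCAtcaggacagc

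The kB sites below were chosen in the same way for acute-only peaks lower in P320. The same choice also gave NR3C1, whose site lies outside its peak and is not shown. MEFV encodes pyrin and GBP4 a guanylate-binding protein.
MEFV, chr16:3256773-3256801, minus strand: cctcccagctGGAAAATCCtctgaacctg
GBP4, chr1:89198969-89198997, minus strand: ttgataaacaGGAAAATCCccaacagtca
NXPE2, chr11:114678479-114678507, plus strand: aagctcatagGGAAACTCCaaccctaaga

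The peak over the SORBS2 site had 9.85 and 12.1 CPM in T320, against 2.11 and 2.19 in T10, and 0.882 and 0.743 CPM in P320, against 1.98 and 1.79 in P10. The peak over the MEFV site had 7.96 and 8.51 CPM in T320, against 4.81 and 3.01 in T10, and 6.18 and 4.76 CPM in P320, against 20.7 and 21.8 in P10. In SORBS2 the high libraries were those of T320, and in MEFV those of P10.

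Libraries outside the interaction gave a separate view of the classes. T160 against C uses neither dose pair; T160 was above C at 11.0% of all peaks and below it at 12.5%. T160 was above C at 989 of the 1905 opposite peaks higher in T320 (51.9%) and at 1288 of the 3283 adapted-only peaks higher in T320 (39.2%). It was below C at 162 of the 537 opposite peaks lower in T320 (30.2%) and at 974 of the 3336 adapted-only peaks lower in T320 (29.2%). Of the acute-only peaks, 926 of the 5133 lower in P320 were above C in T160 (18.0%) and 396 of the 1973 higher in P320 were below it (20.1%). These shares varied with the C libraries: without C replicate 2, T160 was above C at 27.4% of the opposite peaks higher in T320 and at 22.4% of the adapted-only ones, against 8.84% of all peaks. It was then below C at 18.2% of the opposite and 21.3% of the adapted-only peaks lower in T320, against 9.24% of all peaks. The acute-only shares came close to those of all peaks without that library: T160 was above C at 9.02% of the peaks lower in P320, whose median T160 over C value was -0.11 instead of 0.22, and below C at 11.8% of those higher in P320.

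A slope against log2 of the dose was fitted over T20, T40, T80 and T160, which share T160 with the comparison above. It was positive at an adjusted p under 0.05 (edgeR, quasi-likelihood) at 2.92% of all peaks and negative at 2.34%. It was positive at 164 of the opposite peaks higher in T320 (8.61%) and 370 of the adapted-only ones (11.3%), and negative at 4 and 8 of them. Of the opposite peaks lower in T320, 68 had a positive slope (12.7%) and 28 a negative one (5.21%). The slope calls rested on few libraries, with 5526 in all but 321 without T20 replicate 2, 323 without T160 replicate 2 and 2765 without T160 replicate 1.

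The median levels showed where each class stood relative to untreated cells. Opposite peaks higher in T320 had a median of 2.24 CPM in C, which in the adapted populations was 2.39 at 5 uM, 2.68 at 10, 3.32 at 20, 4.05 at 40, 4.59 at 80, 4.46 at 160 and 7.91 at 320 uM, and of 5.73 CPM in P10 and 1.81 in P320. Acute-only peaks lower in P320 had a median of 2.63 CPM in C, 6.11 in P10 and 1.74 in P320, with medians of 2.94 to 4.18 CPM from T5 to T320. Acute-only peaks higher in P320 had the reverse order in acute cells, with a median of 5.75 CPM in C, 1.89 in P10 and 5.46 in P320. P10 was thus the acute group farthest from C in both acute-only classes, and P320 lay closer to C. The P10 and P320 medians chose these classes and are a description.

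**Figure D3:**
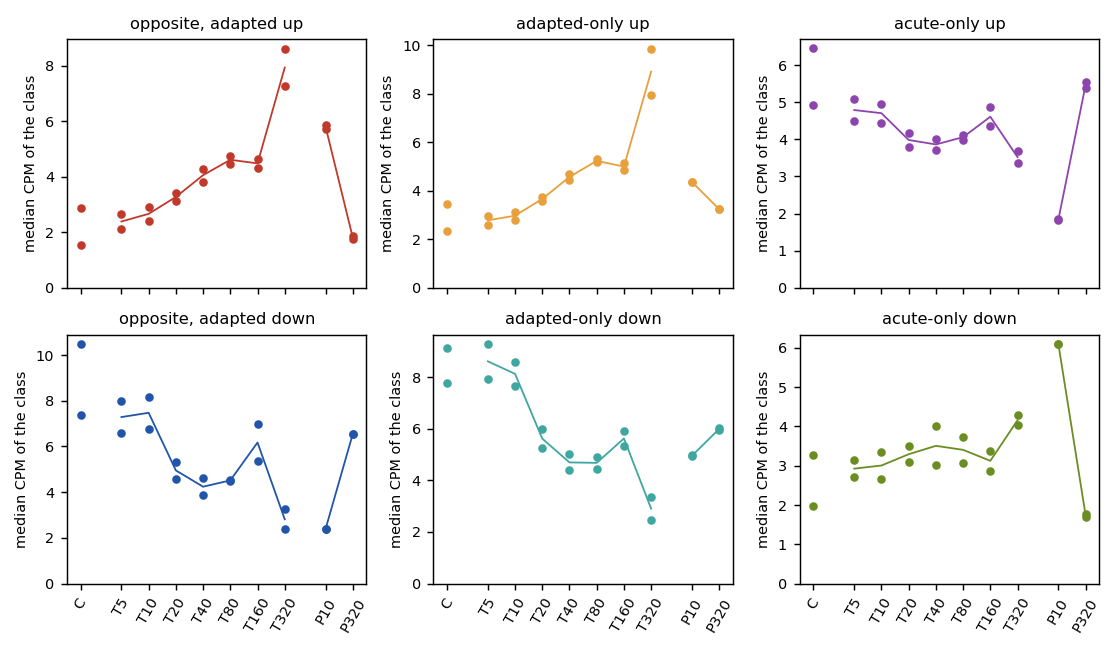
Points give the median CPM over the peaks of each class in each of 20 libraries, in order of dose, with lines through the group means of the adapted and of the acute populations; vertical scales differ between panels. In the opposite class that is higher in T320 the median is 7.91 CPM in T320 and 1.81 in P320; in the acute-only class that is lower in P320 it is 6.11 CPM in P10 and 1.74 in P320.

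Among genes whose own peak was higher in T320 and lower in P320, TREM1, GJA4, COL7A1 and FAP had the largest interactions. COL7A1, the collagen of the anchoring fibrils under epithelia, had 33.7 and 34.5 CPM in T320, against 8.74 and 7.78 in T10, and 8.68 and 9.85 CPM in P320, against 19.2 and 21.7 in P10. The separate dose pairs and their reversed order at COL7A1 follow from the naming rule and the class. The interaction was 3.19 ± 0.30 (SE; adjusted p = 4.4e-06, edgeR quasi-likelihood), and T160 was also above C, with a log2 value of 1.97 (adjusted p = 7.9e-06, edgeR). Its peak lies at chr3:48595314-48596638, in a 5 Mb window whose median adapted dose effect was 0.55. UCN2, which encodes the peptide urocortin 2, lies in the same window and was adapted-only.

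The 250 bases before the start of both genes (GRCh38.p14, minus strand) are shown to set a neighbouring pair side by side, with AP-1 and kB matches in capitals.
UCN2, chr3:48563782-48564031: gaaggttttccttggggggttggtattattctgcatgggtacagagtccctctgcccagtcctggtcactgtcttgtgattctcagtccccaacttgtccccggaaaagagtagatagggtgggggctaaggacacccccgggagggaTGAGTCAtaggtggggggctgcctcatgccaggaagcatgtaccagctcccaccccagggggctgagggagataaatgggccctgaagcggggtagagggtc
COL7A1, chr3:48595330-48595579: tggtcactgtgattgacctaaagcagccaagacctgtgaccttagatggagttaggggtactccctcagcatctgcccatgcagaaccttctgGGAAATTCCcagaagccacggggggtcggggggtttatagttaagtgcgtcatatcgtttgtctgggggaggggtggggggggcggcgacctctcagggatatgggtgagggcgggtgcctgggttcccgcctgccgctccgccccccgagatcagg

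TREM1, a receptor that amplifies inflammatory signals in myeloid cells, had 9.76 and 11.8 CPM in T320, against 5.17 and 3.32 in T10, and 3.18 and 2.30 CPM in P320, against 12.4 and 11.7 in P10. Its interaction was 3.51 ± 0.44. GJA4, a gap junction connexin, had 10.1 and 5.47 CPM in T320, against 2.84 and 1.68 in T10, and 4.80 and 4.64 CPM in P320, against 12.6 and 14.5 in P10. FAP, a membrane serine protease known from activated fibroblasts, had 6.51 and 10.5 CPM in T320, against 3.79 and 4.26 in T10, and 1.55 and 1.19 CPM in P320, against 4.23 and 4.84 in P10. In all 3 genes the naming rule required that the libraries of the 2 doses did not overlap in either setting. The distal peak with the smallest p, 102 kb from ZNF385D (chr3:22474302-22476256), had 25.1 and 34.7 CPM in T320, against 4.30 and 4.93 in T10, and 0.882 and 0.594 CPM in P320, against 6.57 and 7.24 in P10. Its interaction was 5.90 ± 0.44, and its 5 Mb window had a median adapted dose effect of 0.82.

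Only TOGARAM2 and ARHGEF19 met the naming rule among genes lower in T320 and higher in P320. TOGARAM2, which encodes a microtubule regulator of cilia, had 1.80 and 1.75 CPM in T320, against 5.32 and 4.03 in T10, and 22.0 and 19.5 CPM in P320, against 4.50 and 2.92 in P10. The P320 libraries were the highest of all 20. ARHGEF19 had 2.65 and 1.88 CPM in T320, against 5.10 and 5.98 in T10, and 12.8 and 13.4 CPM in P320, against 6.53 and 6.49 in P10. C stood at 14.4 and 19.2 CPM, so that P320 was the group nearest to untreated cells. The interactions were -3.87 ± 0.48 for TOGARAM2 and -2.34 ± 0.40 for ARHGEF19.

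**Figure D4:**
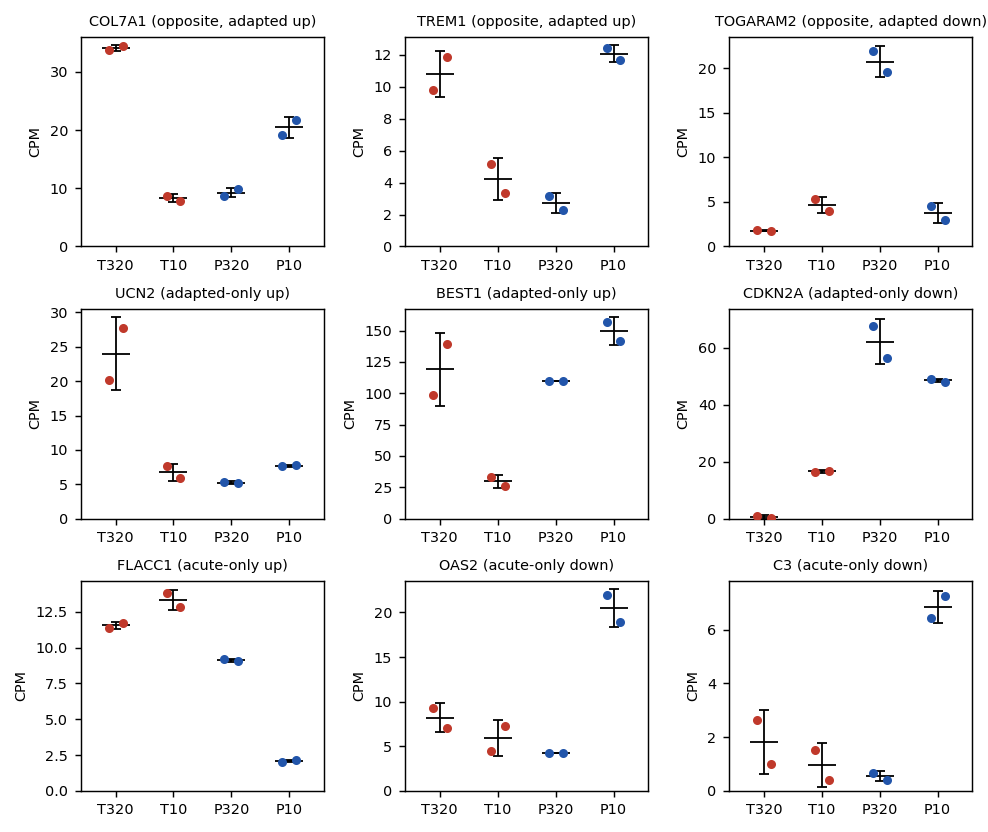
Points are the CPM of each library at the peak of 9 genes, with red for the adapted and blue for the acute populations; bars give the mean and SD (n = 2). COL7A1 and TREM1 are high in T320 and in P10, CDKN2A is near 0 in T320 alone of these 4 groups, and C3 and OAS2 are high in P10.

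Genes higher in T320 with no call in acute cells included UCN2 and the peak shared by BEST1 and FTH1. UCN2 had 20.2 and 27.7 CPM in T320, against 7.65 and 5.86 in T10, and 5.36 and 5.13 CPM in P320, against 7.59 and 7.76 in P10. The peak of BEST1 and FTH1, of which FTH1 encodes the iron-storing heavy chain of ferritin, had 98.7 and 140 CPM in T320, against 33.4 and 26.1 in T10, and 110 and 110 CPM in P320, against 157 and 142 in P10. Both T320 libraries lay below both P10 libraries and on either side of the P320 ones, and C had 37.7 and 17.4 CPM. The T20 to T160 slope there was 0.81 ± 0.09 per doubling of dose (adjusted p = 0.00013, edgeR). DHRS9, a dehydrogenase of retinoid and steroid metabolism, had 3.0 and 6.05 CPM in T320, against 0.947 and 0.704 in T10, and AGXT2, a mitochondrial aminotransferase, had 7.96 and 7.08 CPM in T320, against 2.26 and 2.15 in T10. DHRS9 and AGXT2 had acute dose effects of -1.01 ± 0.56 and -0.85 ± 0.44. The distal peak 115 kb from ZMIZ1 had 21.7 and 25.4 CPM in T320, against 2.84 and 1.84 in T10, and 7.02 and 6.50 CPM in P320, against 8.69 and 8.46 in P10.

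The largest adapted-only loss was at CDKN2A and CDKN2B, which encode the cell cycle inhibitors p16 and p15. CDKN2A had 0.942 and 0.179 CPM in T320, against 16.3 and 16.8 in T10, and 67.7 and 56.5 CPM in P320, against 48.9 and 48.0 in P10. Its interaction was -5.51 ± 0.66 (adjusted p = 2.6e-05, edgeR quasi-likelihood). The level did not follow dose: C had 43.0 and 64.7 CPM, T5 26.2 and 28.0, T10 16.3 and 16.8, T20 9.91 and 3.14, T40 0.801 and 0.204, T80 4.92 and 4.58, T160 12.2 and 15.2, and T320 0.942 and 0.179. T40 and T320 were the lowest groups, with T160 between them and T10.

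This loss covered a contiguous stretch. From chr9:21854369-22119830, 265 kb in MTAP, CDKN2A and CDKN2B, 16 peaks in a row had a T320 over T10 value of -3 or lower, and 15 of them were adapted-only. Only 46 peaks in the genome were that low, and outside this stretch no 2 of them were neighbours. The stretch was picked after its values were seen. Summed over it, T320 had 6.16 and 0.717 CPM, against 86.1 and 82.2 in T10, and P320 had 264 and 249 CPM, against 253 and 253 in P10. The 10 peaks before the stretch summed to 64.6 and 80.4 CPM in T320, against 54.5 and 62.6 in T10, and the 10 after it to 39.3 and 54.2 in T320, against 32.9 and 31.9 in T10. For T320 over T10 the step lay at the edges of the stretch. Against the other groups the 10 peaks before it were also lower in adapted cells. Their mean sum was 137 CPM in C, 121 in P10 and 128 in P320, and from 50.1 in T80 to 72.5 in T320 among the adapted groups. The 10 after it had 50.6 in C, 65.5 in P10 and 41.4 in P320, and from 23.1 in T40 to 46.7 in T320. DNA copy number was not measured, so that lost DNA, closed chromatin and a changed mix of cells cannot be told apart there.

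ELAVL2, a neuronal RNA-binding protein gene farther along chromosome 9, had 0.685 and 0.583 CPM in T320, against 2.55 and 2.50 in T10, and 10.9 and 12.1 CPM in P320, against 7.45 and 7.06 in P10. NAP1L5, a nucleosome assembly protein-like gene, had 1.46 and 0.627 CPM in T320, against 4.08 and 4.77 in T10, and lies in a window with a median adapted dose effect of -0.74. The peak at LMTK3 on chromosome 19 had 14.3 and 7.39 CPM in T320, against 97.1 and 89.9 in T10, in a window at -0.72. In all 3, T320 was the lowest of the 4 groups.

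Among genes lower in P320 with no call in adapted cells, LRRC70, SAA2, C3 and S100A12 had the largest interactions. C3, the central complement component, had 2.65 and 0.986 CPM in T320, against 1.53 and 0.391 in T10, and 0.671 and 0.409 CPM in P320, against 6.44 and 7.28 in P10. SAA2, an acute-phase serum amyloid, had 2.48 and 0.627 CPM in T320, against 0.874 and 0.274 in T10, and 0.318 and 0.706 CPM in P320, against 4.67 and 4.66 in P10. S100A12, a calgranulin, had 3.25 and 4.79 CPM in T320, against 1.75 and 0.821 in T10, and 2.47 and 2.53 CPM in P320, against 10.3 and 12.6 in P10. The 2 P10 libraries stood above all others at each of these peaks. The interactions were 4.61 ± 0.97, 4.64 ± 0.98 and 3.92 ± 0.82 (adjusted p = 0.0020, 0.0021 and 0.0019, edgeR quasi-likelihood). LRRC70 had no count in either P320 library, against 13 counts in P10, which is at least 5.60-fold lower taking 3 counts over the group as the floor.

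OAS2, an interferon-induced sensor of double-stranded RNA, had 9.33 and 7.08 CPM in T320, against 4.45 and 7.31 in T10, and 4.24 and 4.20 CPM in P320, against 22.0 and 19 in P10. IL1B, an inflammatory cytokine, had 2.23 and 2.69 CPM in T320, against 2.11 and 1.41 in T10, and 0.988 and 1.00 CPM in P320, against 5.25 and 4.97 in P10. The interactions were 2.72 ± 0.40 and 2.87 ± 0.55. The distal peak near ANXA6 had 24.4 and 22.4 CPM in T320, against 17.1 and 15.7 in T10, and 12.7 and 10.4 CPM in P320, against 57.7 and 59.4 in P10. The adapted libraries lay between the acute doses at all 3 peaks.

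Genes higher in P320 with no call in adapted cells were led by LRRTM4, DRC12, FLACC1 and DNAJA4. FLACC1, a flagellum-associated gene, had 11.4 and 11.7 CPM in T320, against 13.8 and 12.8 in T10, and 9.21 and 9.07 CPM in P320, against 2.03 and 2.14 in P10. DNAJA4, a co-chaperone of HSP70, had 6.16 and 2.42 CPM in T320, against 5.17 and 3.52 in T10, and 12.4 and 11.7 CPM in P320, against 3.75 and 2.27 in P10. The interaction call of DNAJA4 was lost without P10 replicate 2 and under gene-start scaling. LRRTM4, a synaptic adhesion gene, had 1.76 and 2.12 CPM in P320, against 0.617 and 0.654 in P10. DRC12, part of the dynein regulatory complex of cilia, had 6.53 and 5.83 CPM in P320, against 2.16 and 2.75 in P10. The distal peak near IVNS1ABP had 16.1 and 14.5 CPM in P320, against 2.12 and 1.79 in P10, with C at 10.3 and 16.3 CPM.

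Of the 22 genes named from the classes, 21 kept the interaction call when any 1 library was left out, but only 9 kept their class: COL7A1, BEST1, UCN2, CDKN2A, CDKN2B, NAP1L5, FLACC1, LRRC70 and C3. In the others a dose effect crossed its threshold, while the interaction call stayed for all but DNAJA4.

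Several genes held many class members within 50 kb. They were picked for these counts, which are a description, and over all peaks the adapted-only lower class held 3.18%, the adapted-only higher class 3.13%, the opposite higher class 1.81%, the opposite lower class 0.511% and the acute-only lower class 4.89%. ERBB4, a receptor tyrosine kinase, had 17 adapted-only lower and 3 opposite lower peaks among 35, and its window had a median adapted dose effect of -0.37. TNS1, which encodes the focal adhesion protein tensin, had 10 adapted-only lower peaks among 26 in a window at -0.91. CDH13, a cadherin, had 10 adapted-only higher and 5 opposite higher peaks among 21 in a window at 0.19. ADAM12, a metalloprotease, had 5 opposite higher peaks among 19, and PHLDB2, a cortical microtubule anchor, had 10 acute-only lower peaks among 26. The window of ADAM12 had a median adapted dose effect of 0.28. The window of PHLDB2 had a median dose effect of -0.16 in adapted cells and of 0.12 in acute cells.

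Long chromosome stretches moved together in adapted cells. Over 582 windows of 5 Mb with at least 10 peaks, the window medians had an SD of 0.29 for T320 over T10 and of 0.14 for P320 over P10. They exceeded 0.5 in size in 55 windows in adapted cells and in 4 in acute cells. Replicates of T320 and of T10 also differed more than those of P320 and of P10. The part of this in the wider spread was not tested. Chromosome 3 held 13 of the windows above 0.5 in adapted cells, with a highest value of 0.87, and the lowest was -0.91 on chromosome 2. When each window's median shift was removed as a stand-in for DNA copy number, the opposite peaks numbered 2316, the adapted-only peaks 5098 and the acute-only peaks 7731, and 71.0%, 59.0% and 80.4% of the original members stayed in their class.

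**Figure D5:**
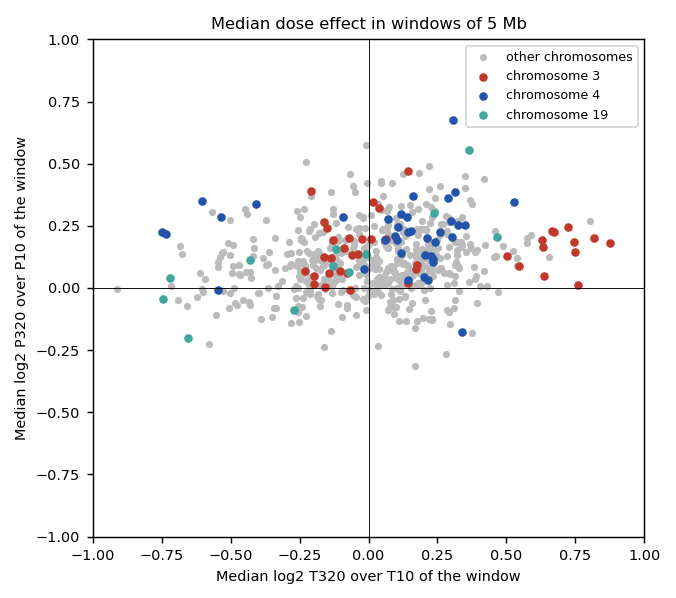
Each point is a window of 5 Mb, with its median log2 T320 over T10 on the horizontal axis and its median log2 P320 over P10 on the vertical axis, on equal scales. The spread is wider along the adapted axis (SD 0.29) than along the acute axis (SD 0.14), and windows of chromosome 3 reach 0.87.

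Gene lists were read through 1 peak per gene. Among 14417 genes with a peak, the interaction was higher at 224 (1.55%) and lower at 1236 (8.57%), with a median of -0.44. The NF-kB and cytokine list had 2 of 17 members higher, IL1B and CXCL8, and RELB lower; under gene-start scaling 3 were higher and 0 lower. BIRC3, CXCL8 and IL1B were lower in P320 than in P10, 3 of 17, against 148 of all 14417 genes. The interferon list had OAS2 higher and IFI27 and IFIT1 lower among 22. In all, 7 members had an unadjusted p under 0.05 in edgeR. DESeq2 called 1 higher and 0 lower, and edgeR under gene-start scaling called 4 higher and 0 lower. OAS1 and OAS2 were lower in P320 than in P10, 2 of 22, against 148 of all 14417 genes. IFI27 was higher, 1 of 22, against 54 of all genes.

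The epithelial list had 4 of 19 members lower and none higher: CLDN3, CLDN4, SPINT2 and TJP3, all parts or regulators of epithelial surfaces and junctions. CLDN3 had 5.74 and 6.0 CPM in T320, against 10.3 and 12.1 in T10, and 32.0 and 28.7 CPM in P320, against 16.3 and 18.1 in P10, with an interaction of -1.75 ± 0.36 that kept its call in each alternative with a log2 minimum of 1. The Mullerian and serous ovarian list had 4 of 17 lower, BCAM, EMX2, KLK8 and SOX17. BCAM, a laminin receptor, had 25.3 and 29.1 CPM in T320, against 71.6 and 74.7 in T10, and 82.0 and 82.8 CPM in P320, against 68.2 and 67.9 in P10, in a window at -0.75. Under gene-start scaling these lists had 2 lower with 1 higher, and 1 lower with 0 higher.

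The homologous recombination, Fanconi and PARP list had 2 of 33 lower, XRCC1 and the peak that ATM shares with NPAT, and a median of -0.58; under gene-start scaling 0 were called and the median was -0.16. The chromatin regulator list had 4 of 26 lower, DNMT3A, EED, EZH2 and KMT2C, and under gene-start scaling 0 lower and 1 higher. The AP-1 and immediate early genes themselves had 0 of 20 called in the interaction by edgeR's quasi-likelihood test and 0 by DESeq2, with 7 at an unadjusted p under 0.05 in edgeR, 1 called higher under the trended offset and 1 lower under the window offset, and 0 called in either dose effect (4 and 5 at an unadjusted p under 0.05 in adapted and acute cells). By edgeR and by DESeq2, 0 were called in the interaction among 24 mesenchymal genes (5 at an unadjusted p under 0.05 in edgeR), 17 NRF2 and detoxification genes (1), 19 glycolysis and hypoxia genes (5), 18 Wnt and stemness genes (7), 16 antigen presentation genes (4) and 12 constitutive genes (4). Of these lists, antigen presentation had 2 higher under gene-start scaling and the mesenchymal list 1 higher under the window offset. The remaining pathway lists had 1 or 2 members called: PHGDH and SEL1L lower of 19 stress response genes, TP53INP1 lower of 19 p53 genes, RRM2 and CCND1 lower of 24 cell cycle genes, CYP51A1 lower of 21 cholesterol genes, LATS2 lower of 17 YAP and TEAD targets and ABCG1 higher of 10 ABC transporters.

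Markers of other cell types were read in the same way. CD14 and CSF1R were higher in the interaction among the 3 blood markers with a peak, whose summed level was 29.7 to 29.8 CPM in T320, 18.5 to 22.1 in T10, 34.9 to 35.9 in P320 and 41.3 to 42.1 in P10. CD14 was highest in P10 among these groups, with 18.5 and 19 CPM, as were C3, SAA2, S100A12, OAS2 and IL1B, while CSF1R was highest in T320, with 9.85 and 11.3 CPM. PTPRC, CD3E, ITGAM and GATA1 had no gene peak. The part of these markers in those results was not tested. APOA1 was lower among 2 hepatocyte markers and SOX17 among 10 ovarian epithelial markers. By edgeR and by DESeq2 0 were called in the interaction among 3 endothelial, 6 neural and 2 fibroblast markers, with 2, 3 and 2 at an unadjusted p under 0.05 in edgeR. Under gene-start scaling 3 neural markers and 1 endothelial marker were called higher, and under the trended offset 1 neural marker. The 6 neural markers summed to 100 to 126 CPM in T320, 75.5 to 78.0 in T10, 69.3 to 73.0 in P320, 67.3 to 69.3 in P10 and 49.4 to 61.2 in C. In the adapted dose effect OLIG2 and SYT1 rose, with log2 values of 1.05 ± 0.28 and 1.24 ± 0.26, and TIE1, an endothelial receptor, fell by 1.59 ± 0.28. These were 2 of 6 neural and 1 of 3 endothelial markers. Of all 14417 genes with a peak, 139 were called higher in T320 than in T10 and 279 lower. The neural sum was thus highest in T320, and most of its difference from T10 was SYT1. SYT1 had a mean of 43.2 CPM in T320, against 18.3 in T10, and OLIG2 9.30, against 4.54. The part of the neural markers in the adapted results was not tested. Of the 24 list genes named, 7 kept their interaction call under gene-start scaling.

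The drug targets and the sort markers were not called in the interaction. PARP1 had 11.6 and 16.7 CPM in T320, against 14.6 and 20.7 in T10, and 50.8 and 44.1 CPM in P320, against 31.7 and 37.4 in P10, with an interaction of -0.77 ± 0.31 that was called without T320 replicate 2. CD24 and CD44, on which the T groups were sorted, had interactions of 0.14 ± 0.29 and -0.10 ± 0.31, whose sign changed between settings. ABCB1, a drug efflux pump, had 11.4 and 12 CPM in T320, against 10.2 and 7.27 in T10, and 6.04 and 5.02 CPM in P320, against 6.04 and 5.49 in P10; its interaction of 0.49 ± 0.33 was called under the window offset. PARG, BRCA2, SLFN11 and TP53BP1 had interactions between -0.65 and 0.60.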

How the data were processed

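The authors deposited a table of consensus peaks with whole-number read counts per library and no normalization, per the labels. Per the submitters' processing notes, the tools were Bowtie2, SAMtools, Trim Galore, MACS2, Picard, DESeq2, deepTools and HOMER, with roles not given, and the build was GRCh38. Whether duplicates were removed and peak starts count from 0 is not given in the sources used here. Of 28 samples in the labels, 8 have no column in this table and were not analysed here.

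Counts of 20 libraries (10 groups) were fitted with edgeR 4.0.16 (R 4.3.3; TMM, robust quasi-likelihood, no replicate block); filterByExpr removed 0 peaks. CPM use TMM-scaled library sizes. The labels do not say that replicates were separate cultures, so p-values may measure technical spread. In these bulk samples, fewer cells of a type and less signal per cell cannot be told apart. A gene's peak overlaps its RefSeq 300-base start window or, with no window at hand, lies within 1 kb of either gene end; of several, the one with the highest mean count was taken as the gene's own. Genes named are the 4 per class whose own peak has the largest interaction (at least 2 CPM in the highest group, no overlap of libraries), the distal peak with the smallest p per class, the 2 members per list with the smallest adjusted p, and 8 genes in any case. The 25 lists, the classes and the rule were chosen with earlier results of these data known. The fit was tested on simulated data. Alternatives were total counts, gene-start TMM, trended and window offsets, a replicate block, DESeq2 1.42.0, filters, fold minimums, a fit of only the groups compared, and each library left out in turn.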

Additional observations from a re-analysis of the deposited data

Results flagged for a closer look

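The dose effect differed between adapted and acute cells, by the test of the difference itself, at 14264 peaks with a higher and 10500 with a lower value in adapted cells. The interaction log2 values of the named peaks that passed that test (edgeR quasi-likelihood, Benjamini-Hochberg) follow.

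Among opposite peaks higher in T320, the values were 3.51 for TREM1, 3.32 for GJA4, 3.19 for COL7A1, 2.80 for FAP and 5.90 for the distal peak near ZNF385D. Among opposite peaks lower in T320, they were -3.87 for TOGARAM2, -2.34 for ARHGEF19 and -3.40 for the distal peak near CA8. Adapted-only peaks higher in T320 had 3.50 for DHRS9, 2.61 for AGXT2, 2.45 for BEST1, 2.39 for UCN2 and 3.71 for the distal peak near ZMIZ1. Adapted-only peaks lower in T320 had -5.51 for CDKN2A, -5.15 for CDKN2B, -2.82 for NAP1L5, -2.67 for ELAVL2 and -3.17 for the peak at LMTK3.

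Acute-only peaks higher in P320 had -2.47 for LRRTM4, -2.34 for DRC12, -2.33 for FLACC1, -2.05 for DNAJA4 and -3.46 for the distal peak near IVNS1ABP. Acute-only peaks lower in P320 had 5.18 for LRRC70, 4.64 for SAA2, 4.61 for C3, 3.92 for S100A12 and 2.85 for the distal peak near ANXA6. The LRRC70 value depends on the prior count, since P320 held no count there.

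Among list members, the positive values were 1.45 for ABCG1, 2.72 for OAS2, 2.87 for IL1B, 1.94 for CSF1R and 2.02 for CD14. The negative values were -1.12 for PHGDH, -1.01 for SEL1L, -1.20 for TP53INP1, -1.10 for RRM2, -1.10 for CCND1, -1.28 for XRCC1, -1.05 for ATM and -1.11 for CYP51A1. They were -1.75 for CLDN3, -1.13 for CLDN4, -1.70 for BCAM, -1.41 for KLK8, -1.01 for IFI27, -1.35 for RELB and -1.13 for LATS2. They were -1.34 for EZH2, -1.25 for EED, -1.67 for APOA1 and -1.23 for SOX17.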

How the results depend on the processing

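Total counts, gene-start scaling, trended and window offsets, DESeq2, other filters and a fit of the compared groups alone left the counts of interaction, dose-effect and T160 calls, and of opposite, adapted-only and acute-only peaks, within 1.5 times of those reported when both directions are added. By direction, gene-start scaling moved several beyond that: 4185 peaks were lower in the interaction, P320 was above P10 at 1607, and 193 opposite lower, 1762 adapted-only lower and 686 acute-only higher peaks were left. With no fold minimum, T320 against T10 gave 20132 calls and the opposite peaks numbered 4058. At a log2 minimum of 2, the interaction gave 10493 calls, T320 against T10 1796, P320 against P10 3417 and T160 against C 5556, with 141 opposite, 1018 adapted-only and 2026 acute-only peaks. With the other setting under 0.5 in size, 4097 adapted-only and 3598 acute-only peaks remained. The slope gave 8528 calls with a trended offset, 3631 with a window offset and 3201 from the groups compared alone.

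Leaving out 1 library gave 16961 to 24505 interaction calls, 6198 to 15807 for T320 against T10, 5725 to 15108 for P320 against P10, 16495 to 25417 for T160 against C and 321 to 5840 for the slope. The opposite peaks ranged over 1064 to 2570, the adapted-only peaks over 3320 to 8062 and the acute-only peaks over 2987 to 8242. The cause of these changes was not tested.

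Sign changes occurred at 3 named genes, none of them called. PARG had -0.15 under the window offset. CD24 had -0.089 under it and -0.037 to 0.31 with 1 library left out. CD44 had 0.30 under gene-start scaling, 0.17 under the trended offset, 0.35 under the window offset and -0.37 to 0.11 with 1 library left out. Of 60 named peaks, 18 lost the interaction call under gene-start scaling, 17 under the window offset, 15 under the trended offset, 6 with total counts and 2 with DESeq2.

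Same-numbered libraries of T320 and T10, the adapted dose pair, had replicate differences correlated at 0.45, and the other 5 pairs of groups between -0.10 and 0.0015. The main fit did not pair same-numbered libraries. Whether the replicate number marks a batch in the adapted groups was not tested. With a replicate block the interaction gave 30684 calls, T320 against T10 15893, P320 against P10 17976 and the slope 11378. It kept 99.9% of the main interaction calls and 99.8% of the opposite peaks. Of the adapted-only peaks it kept 84.7%, and of the acute-only peaks 85.6%. Total counts were lower in replicate 1 than in replicate 2 of C and of each adapted group.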
